A study of Mus musculus with 9 samples.

Results

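ERVB3 and ERVB4 are groups of mouse endogenous retroviruses of the betaretrovirus-like class, named by their repeat consensus. A copy was counted as a member when its repeat name begins with ERVB3 or ERVB4, and long terminal repeats (LTRs) were kept apart from internal parts. This gave 682 of the 623916 transposable element (TE) copies listed, under 10 names: 55 copies of ERVB3 and 627 of ERVB4. The rule itself uses no measured value, although the members were chosen with earlier results of these data known. RNA-seq was available for embryonic stem cells (ESCs) of C57BL/6 background at early passage, from G4 Terc-/- ESCs, G1 Terc-/- ESCs and wild-type (WT) ESCs, with 3 libraries per group and 9 in all. Terc encodes the RNA template of telomerase. Per the study, matings between G3 Terc-/- animals gave the G4 cells and matings between heterozygotes the G1 cells. Both groups therefore lack the same gene and differ in the number of generations without it. Feeder cells were removed before RNA was taken. The table lists TE copies only, so the level of Terc was not analysed here. The labels do not say that the libraries of a group came from separate cultures or lines, so that the p-values speak of spread among libraries, which may be technical.

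An intact endogenous retrovirus carries an LTR at each end and a coding interior between them. The 5′ LTR holds the promoter and the 3′ LTR the signal that ends the transcript. In mouse ESCs such elements are kept silent by KRAB zinc finger proteins that recruit TRIM28 and SETDB1, with H3K9me3 and DNA methylation. Early transposons (ETn) and their coding relatives (MusD) are betaretrovirus-like too, and are known for transcripts in early embryos and for new insertions in laboratory mice.

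A copy named ERVB4_1C-LTR_Mm was usually short, with a median length of 124 bp over its 202 copies. Of these, 153 lay within 50 bp of an ETn or MusD part on the same strand, and they held 99.0% of the counts of the name. Sequence was at hand only where a copy lies in an exon of GENCODE M21 (build GRCm38), and a set is printed here to show what such a fragment is. The first is a fragment between ETnERV-int and RLTR13G on the minus strand of chr1:89097401-89097553, which overlaps an exon of the uncategorised transcript Gm38312 on the opposite strand. The second is the start of a long ERVB4_1C LTR on the plus strand, chr3:49138115-49138224, at the end of an ERVB4_1B interior and in an exon of Gm37819. The third is a fragment beside ETnERV-int on the plus strand of chr13:3488242-3488356, in an exon of the lincRNA 2810429I04Rik. Capitals mark the bases identical to the long LTR, or, in the long LTR, to the Gm38312 fragment.
ERVB4_1C in Gm38312: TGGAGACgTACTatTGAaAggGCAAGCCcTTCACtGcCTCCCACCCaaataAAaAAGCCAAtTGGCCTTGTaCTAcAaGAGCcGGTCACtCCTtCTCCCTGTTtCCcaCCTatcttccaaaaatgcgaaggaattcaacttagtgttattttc
ERVB4_1C LTR in Gm37819: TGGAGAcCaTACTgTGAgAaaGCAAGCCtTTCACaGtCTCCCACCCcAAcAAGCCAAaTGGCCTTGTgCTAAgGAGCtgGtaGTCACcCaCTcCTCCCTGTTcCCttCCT
ERVB4_1C in 2810429I04Rik: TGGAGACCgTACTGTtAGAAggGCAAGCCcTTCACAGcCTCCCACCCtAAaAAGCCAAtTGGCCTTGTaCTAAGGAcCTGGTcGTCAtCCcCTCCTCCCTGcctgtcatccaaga

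Bases 1 to 111 of the 153-base fragment aligned to bases 1 to 110 of the long LTR, with 86 identical bases over 116 aligned positions (74.1%). Bases 1 to 101 of the 115-base fragment aligned to bases 1 to 100, with 86.1% identical. In both, the aligned bases matched the 5′ end of the long LTR, and the last bases of the fragment did not align. The long LTR was compared over the 413 bases at hand.

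3 other stretches are printed. The ERVB3_1 and ERVB4_1B stretches are from proviruses described further on. The ERVB4_2 stretch is from an RLTR45-int insertion that is not among those described further on. The ERVB3_1 stretch is the last 150 bases of the annotated transcript 6330410L21Rik, an antisense RNA that ends inside an ERVB3_1 LTR (plus strand, chr3:129763735-129763884). Capitals mark TATAAA and ATTAAA. The ERVB4_2 stretch is an LTR fragment at the 5′ end of an RLTR45-int insertion (plus strand, chr15:33831449-33831584, in an exon of Gm49089). The ERVB4_1B stretch is part of the 3′ LTR of the provirus with the most ERVB4_1B counts (plus strand, chr13:62013035-62013144), where GENCODE places the microRNA model Gm25649 on the opposite strand.
ERVB3_1 LTR in 6330410L21Rik: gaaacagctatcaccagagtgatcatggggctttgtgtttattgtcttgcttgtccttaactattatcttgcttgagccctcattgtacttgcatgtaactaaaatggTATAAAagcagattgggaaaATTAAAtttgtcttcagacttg
ERVB4_2 LTR in Gm49089: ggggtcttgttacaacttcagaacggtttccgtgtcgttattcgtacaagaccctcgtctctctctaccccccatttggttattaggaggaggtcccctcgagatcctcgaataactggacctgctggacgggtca
ERVB4_1B LTR in Gm25649: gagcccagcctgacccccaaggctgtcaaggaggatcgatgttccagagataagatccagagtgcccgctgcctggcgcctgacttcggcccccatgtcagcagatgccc

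ATTAAA, a variant of the polyadenylation signal AATAAA, began 22 bases before the annotated end of 6330410L21Rik, and TATAAA 42 bases before it. AATAAA was not in the last 60 bases. Among the last 60 bases of 141515 GENCODE transcripts, on the transcript strand, 9.1% held ATTAAA, 4.34% held TATAAA and 27.2% held AATAAA, and with both strands searched the shares were 12.4%, 7.07% and 30%. A match of letters is not a site. A microRNA model like Gm25649 lay in 15 ERVB4_1B LTR copies, and 6 of them had the same 110 bases, so short reads from these LTRs cannot be placed on one copy by this stretch.

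The libraries held between 918879 and 1137257 TE counts. Members took 0.188% to 0.249% of each. Counts were estimated and shared between similar copies by the authors, and 225 of the 682 members held values that are not whole numbers. Levels below are CPM, the counts scaled to library totals with TMM factors, and the spread is the SD over 3 libraries. A difference was called at a Benjamini-Hochberg adjusted p under 0.05 in edgeR's quasi-likelihood test, adjusted over all names or all copies tested. In a bulk sample, fewer cells of a type and less RNA per cell cannot be told apart. Of the ESC markers, 7 of 16 had a TE in an exon through which they could be read, and their summed level was 23037 to 26831 CPM in G4, 11578 to 12195 CPM in G1 and 7459 to 7904 CPM in WT. Most of that sum was Tdgf1, at 16539 CPM in G4, 6675 CPM in G1 and 4329 CPM in WT. Of 6 tested ESC markers 5 rose in G4 against WT (48.3% of all genes called). Lin28a changed by -0.17 on the log2 scale and was not called. Zfp42 averaged 5.79 CPM in G4 and 5.54 CPM in WT and was not tested. Nanog and Tdgf1 were detected in all groups, and Pou5f1 and Sox2 have no TE in an exon. Primitive endoderm markers, readable for 6 of 12 genes, summed to 104.7 to 127.6 CPM in G4, 1998 to 2127 CPM in G1 and 4533 to 4580 CPM in WT. Feeder fibroblast markers, also readable for 6 of 12, summed to 601.3 to 658 CPM in G4, 556.2 to 683.6 CPM in G1 and 323.3 to 366.1 CPM in WT. Most of this was Fbln2, at 522.5 CPM in G4, 516.3 CPM in G1 and 289.3 CPM in WT. Dcn was at 0 in G4 and G1 and at 0, 0 and 1.92 CPM in WT. Among the endoderm markers, most of the sum was Col4a2, at 86.1 CPM in G4, 1589 CPM in G1 and 3495 CPM in WT. All 4 tested endoderm markers fell in G4 against WT. Their log2 fold changes were -5.33 (Col4a2), -5.27 (Gata4), -5.17 (Sox7) and -3.0 (Pdgfra). Dab2, which was not tested, was at 0 in G4 and G1. The ESC and endoderm sums differed between all groups, and the feeder sums overlapped between G4 and G1. The part of these lists in the results below was not tested.

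By name, 6 of the 9 names that passed the filter on low counts rose in G4 against WT, and 1 fell, where 46.5% of the 853 names tested in the whole table were called. ERVB4_2-LTR_MM and ERVB3_1-I_MM-int rose most and ERVB4_1C-LTR_Mm fell. In G1 against WT, 3 names rose and none fell by this test (11.8% of all names called), and in G4 against G1, 6 rose and 2 fell (42.4%). At an unadjusted p under 0.05, ERVB3_1-I_MM-int and ERVB4_2-LTR_MM also passed in G1 against WT, both upward. The median log2 fold change over all names was 0.00 in G4 against WT. G4 against WT and G1 against WT share the WT libraries. The tenth name, ERVB4_3-LTR_MM, had 9 counts over the 9 libraries and was not tested.

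**Figure D1:**
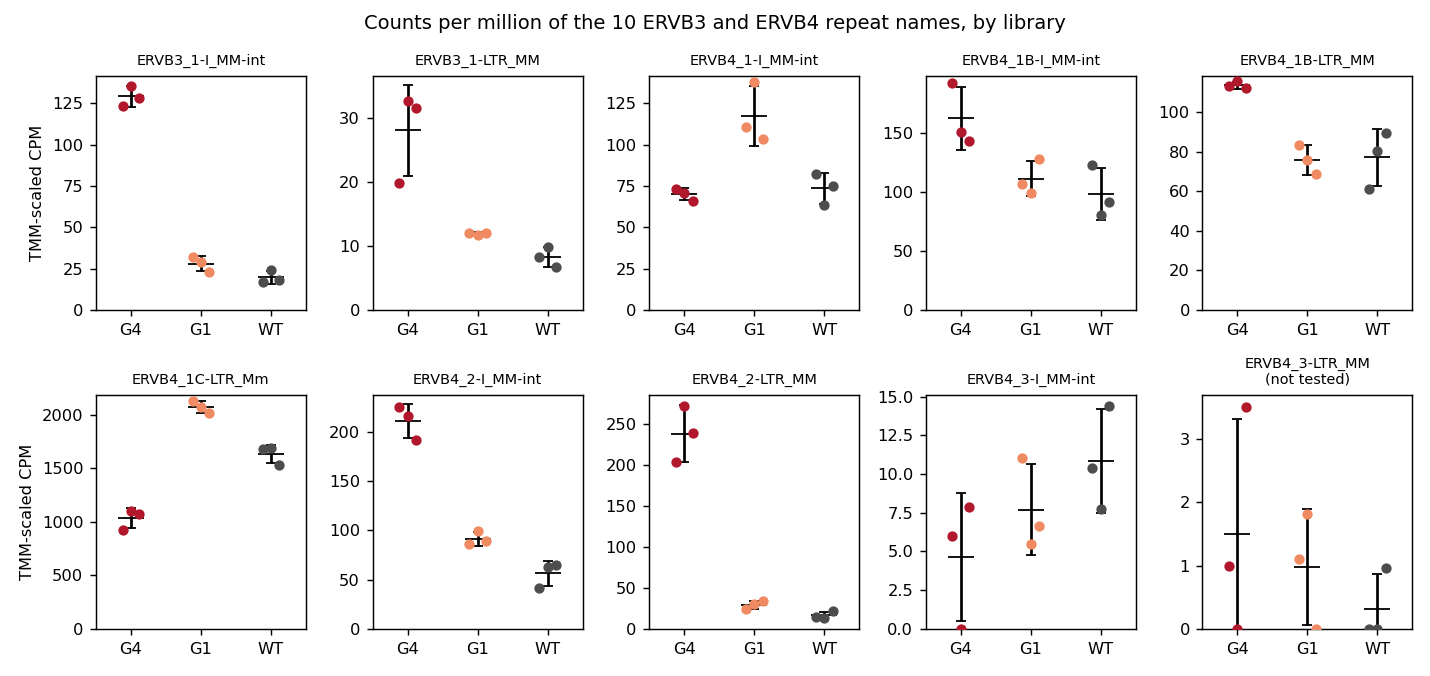
TMM-scaled CPM (linear axes from 0) of each ERVB3 and ERVB4 repeat name in the 3 libraries of G4, G1 and WT. Points are libraries, the horizontal mark is the mean and the bar is the SD. ERVB4_2-LTR_MM and ERVB3_1-I_MM-int are high in G4, and ERVB4_1C-LTR_Mm is low there.

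Among the LTRs, ERVB4_2-LTR_MM (63 copies) had 203, 273 and 239 CPM in the G4 libraries, 24.6, 30.2 and 34.3 CPM in G1 and 14.4, 13.2 and 21.7 CPM in WT. The groups did not overlap between G4 and WT, nor between G1 and WT. The log2 fold change was 3.82 ± 0.19 (SE) in G4 against WT and 3.01 ± 0.17 in G4 against G1, and both passed the test. In G1 against WT it was 0.81 ± 0.28 with an edgeR adjusted p of 0.0625.

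ERVB3_1-LTR_MM (30 copies) had 19.9, 32.7 and 31.6 CPM in G4, 12, 11.8 and 12.1 CPM in G1 and 8.3, 9.91 and 6.71 CPM in WT. Every G4 library was above every WT library, and the log2 fold change was 1.76 ± 0.33. ERVB4_1B-LTR_MM (95 copies) averaged 113 ± 1.82 CPM in G4, 75.7 ± 7.39 CPM in G1 and 77.1 ± 14.5 CPM in WT, and rose by 0.55 ± 0.14 on the log2 scale in G4 against WT.

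ERVB4_1C-LTR_Mm held more counts than the other names together. It had 925, 1099 and 1075 CPM in G4, 2128, 2070 and 2018 CPM in G1, and 1678, 1686 and 1534 CPM in WT. All G4 libraries were below all WT libraries and all G1 libraries above them. The log2 fold change was -0.66 ± 0.06 in G4 against WT, 0.34 ± 0.06 in G1 against WT and -1.0 ± 0.06 in G4 against G1, and each passed the test. Its direction depended on the copies with such neighbours. Without the copies joined to ETn or MusD parts, an alternative added after the data were seen, the remaining 49 copies gave a log2 fold change of 0.81 in G4 against WT (edgeR adjusted p = 0.0533), and no name fell.

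Among the internal parts, which carry the coding sequence, ERVB3_1-I_MM-int (25 copies) had 123, 135 and 128 CPM in G4, 31.8, 29.2 and 23.2 CPM in G1, and 17.1, 24.2 and 18.2 CPM in WT. G1 and WT overlapped, and G4 stood apart from both. Its log2 fold change was 2.71 ± 0.18 in G4 against WT and 2.19 ± 0.17 in G4 against G1.

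ERVB4_2-I_MM-int (81 copies) had 225, 216 and 191 CPM in G4, 85.6, 99.3 and 89.1 CPM in G1, and 41.5, 62.3 and 65.0 CPM in WT. No group overlapped another. It rose by 1.89 ± 0.14 on the log2 scale in G4 against WT and by 0.70 ± 0.17 in G1 against WT. Without the G1 library of replicate 2, or without the WT library of replicate 1, the second change no longer passed (edgeR adjusted p = 0.0559 and 0.0528).

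ERVB4_1B-I_MM-int (130 copies) averaged 162 ± 26.5 CPM in G4, 111 ± 15 CPM in G1 and 98.6 ± 22.1 CPM in WT, and rose by 0.71 ± 0.16 on the log2 scale in G4 against WT. ERVB4_1-I_MM-int (43 copies) had its highest level in G1. It averaged 69.9 ± 3.68 CPM in G4, 117 ± 18.2 CPM in G1 and 73.5 ± 9.29 CPM in WT, with a log2 fold change of 0.68 ± 0.15 in G1 against WT, -0.76 ± 0.15 in G4 against G1 and -0.08 ± 0.16 in G4 against WT, which was not called. With whole-valued copies neither difference from G1 was called (edgeR adjusted p = 0.471 in G1 against WT and 0.769 in G4 against G1), and without replicate 2 of G1 the rise in G1 against WT was not called either (edgeR adjusted p = 0.0519). ERVB4_3-I_MM-int (9 copies) averaged 4.62 ± 4.12 CPM in G4, 7.68 ± 2.89 CPM in G1 and 10.8 ± 3.35 CPM in WT, and its log2 fold change of -1.22 ± 0.59 in G4 against WT was not called (edgeR adjusted p = 0.0986).

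Counts were spread unevenly over copies. A single copy gave 79.9% of the ERVB3_1-I_MM-int counts, 39.1% of ERVB3_1-LTR_MM and 34.3% of ERVB4_1B-LTR_MM, but only 10.4% of ERVB4_1B-I_MM-int and 15.6% of ERVB4_1C-LTR_Mm. Without the leading copy of each name, ERVB3_1-I_MM-int kept a log2 fold change of 0.84 in G4 against WT (edgeR adjusted p = 0.093) and ERVB3_1-LTR_MM one of 0.83 (0.134), so that neither was called.

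Copy by copy, 51 of the 682 members passed the filter. A copy could pass through a single group, so the counts that follow describe the copies that passed. In G4 against WT 19 rose and 15 fell (42.6% of all 13278 copies tested were called). In G1 against WT 4 rose and none fell by the adjusted test (6.77% of all copies called). DESeq2 called 3 rises and no fall there, and at an unadjusted p under 0.05 16 copies were higher and 4 lower (6 and 3 with the study's fold above 2 as well). In G4 against G1 19 rose and 18 fell (38.2%). The median log2 fold change of the tested members in G4 against WT was 0.01, against -0.018 over all copies. Of the 631 copies not tested, 458 had under 5 counts. Among the other 173, all G4 libraries were above all WT libraries for 39 copies (7.42% of the 170939 such copies in the whole table) and below them for 10 (6.38%).

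**Figure D2:**
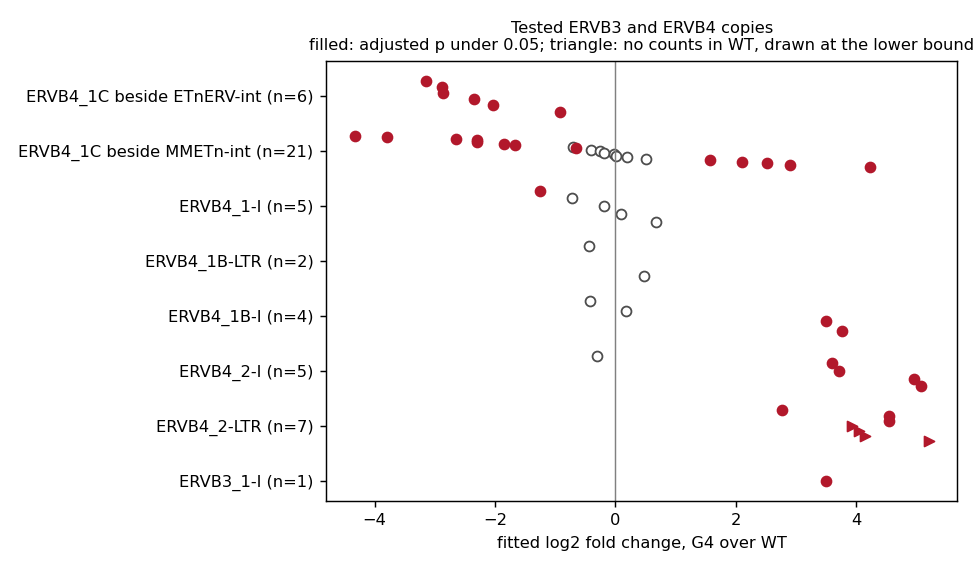
Log2 fold change in G4 over WT (horizontal axis) of the 51 tested copies, by name and, for ERVB4_1C, by the adjoining part. Filled points passed the test, and triangles are copies without counts in WT, drawn at the lower bound of their fold. All 7 ERVB4_2-LTR copies lie to the right and all 6 ERVB4_1C copies beside ETnERV-int to the left.

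By name, all 7 tested copies of ERVB4_2-LTR_MM (63 in all) rose in G4 against WT. So did 4 of 5 tested copies of ERVB4_2-I_MM-int (81 in all). Over all copies tested, 42.6% were called. A copy high in G4 alone could pass the filter, so these counts describe the tested copies only. A pair of the 7 LTRs held the same 9 values. Of 27 tested ERVB4_1C copies joined to ETn or MusD parts, 5 rose, 14 fell and 8 were not called. Of 5 ERVB4_1-I_MM-int copies 1 fell, and of 4 ERVB4_1B-I_MM-int copies 2 rose, both in one provirus.

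The ERVB3_1 counts came mainly from one provirus on chr3. Its interior (chr3:129758045-129763494) had 102, 138 and 125 counts in G4, 19, 22 and 10 counts in G1, and 8, 13 and 9 counts in WT. Its 3′ LTR (chr3:129763497-129763980) had 7, 18 and 25 counts in G4, 3, 3 and 0 counts in G1 and 0, 1 and 2 counts in WT. All values of both parts were whole, and every G4 library was above every WT library. The interior rose by 3.51 ± 0.24 on the log2 scale in G4 against WT. The LTR did not pass the filter, and its ratio of G4 over WT was 15.8 with an exact 95% counting interval of 5.11 to 79.3. No other TE copy listed in the table, which holds only copies with a count in some library, lay within 10 kb outside the provirus. Other ERVB3 and ERVB4 copies were left out of this search. The gene 6330410L21Rik, on the same strand, begins upstream of the provirus, and its last exon runs through the end of the interior into the LTR stretch printed above. Whether the counts come from the gene's own promoter was not tested.

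Most counts of the ERVB4_2 LTR name came from copies beside another element. Of 63 copies, 26 adjoined RLTR45-int, and these held 89.2% of the counts of the name. They summed to 707.7 counts in G4, 73.6 counts in G1 and 32.1 counts in WT. The 37 others summed to 69.4 counts in G4, 12.9 counts in G1 and 16.3 counts in WT. ERVB4_2-I_MM-int copies were also found in such elements: 34 of 81 adjoined RLTR45 or RLTR45-int, with 487.6 counts in G4, 158.4 in G1 and 96 in WT.

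The insertion at chr4:8117035-8124476 has an ERVB4_2 LTR at each end of RLTR45-int. Its 3′ LTR (chr4:8123962-8124476) had 35, 55.8 and 26 counts in G4, 1, 1 and 0 counts in G1 and no count in WT. Against the floor of 3 counts over the WT group, G4 was at least 37.0-fold higher. Over all its parts the insertion had 1624 counts in G4, 35.0 in G1 and 8.0 in WT. Other TE copies within 10 kb of this LTR, outside the insertion, summed to 18 counts in G4, 2 in G1 and 0.5 in WT.

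A pair of 3′ LTRs on chr12, at chr12:23704692-23705157 and chr12:23873366-23873831, had the same 9 values and so cannot be told apart by their reads. Each had 22, 38.9 and 47.2 counts in G4, 4.43, 1.8 and 5.23 counts in G1 and 1.0, 0.5 and 2.85 counts in WT, with a log2 fold change of 4.55 ± 0.55 in G4 against WT. The counts of called copies above take them as a pair of copies. With copies of the same 9 values counted once, an alternative chosen after seeing the data, 18 rose and 14 fell of 49 tested in G4 against WT.

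In the insertion at chr15:9219041-9226527, which runs from RLTR45 to RLTR45 through RLTR45-int, the ERVB4_2 internal part near the 3′ end (chr15:9219515-9220454) had 24.1, 50.4 and 46.6 counts in G4, 3.0, 5.08 and 2.47 counts in G1, and 1.5, 1.0 and 0 counts in WT. All G4 libraries were above all others. The log2 fold change in G4 against WT was 5.08 ± 0.54. Other TE copies within 10 kb of this part, outside the insertion, summed to 16 counts in G4, 0 in G1 and 0 in WT. The ERVB4_2 internal part with the most counts, chr7:18759154-18760162, adjoined RLTR45 in the same way and had 45.2, 49.7 and 47.0 counts in G4, 6.0, 4.81 and 4.94 counts in G1, and 3.0, 0 and 7.36 counts in WT. It rose by 3.71 ± 0.43. Other TE copies within 10 kb of it, outside the insertion, summed to 87 counts in G4, 17.7 in G1 and 8 in WT, so that its surroundings moved with it.

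11 insertions had an ERVB4_2 LTR at both ends. In G4, the 3′ LTR held more counts than the 5′ LTR in all 11, with 488.3 against 193.7 counts over all of them, although in 5 of them neither LTR had more than 6 counts in G4. In G1 the sums were 41 and 27.2 counts, and in WT 21.1 and 11.1 counts. The 5′ LTR held more in 3 of 11 insertions in G1 and 1 of 11 in WT, among them chr12:23697743-23705157 in both, with 17.4 against 11.5 counts in G1 and 8.9 against 4.4 counts in WT. The pair on chr12 enters here with shared values. The LTRs of an insertion are of nearly equal length, so the comparison needs no length scaling. Which part of the difference comes from the sharing of reads was not tested.

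**Figure D3:**
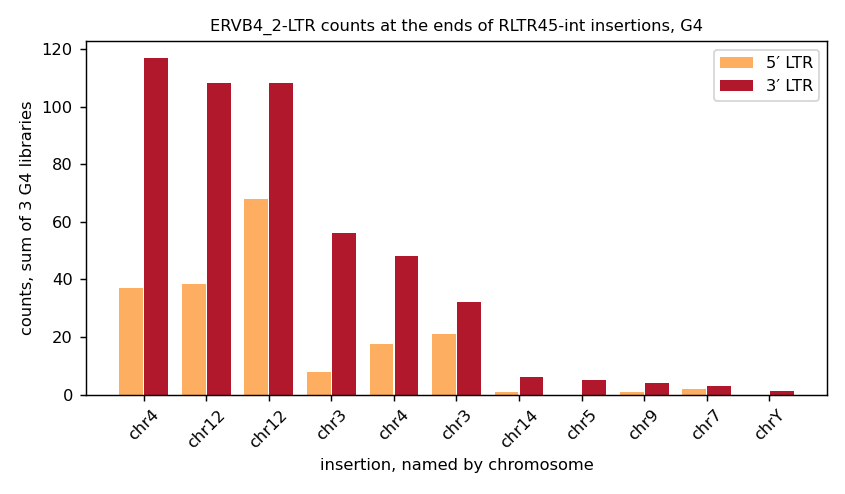
Counts summed over the 3 G4 libraries (linear axis from 0) in the 5′ and the 3′ ERVB4_2 LTR of the 11 insertions with one at both ends, ordered by the 3′ LTR. The 3′ bar is the higher one in every pair, by 116.8 against 37.0 counts on chr4.

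The ERVB4_1B provirus with the most counts (chr13:62008267-62013357) has an LTR at each end and RMER16A3 in its interior. The larger internal part (chr13:62010034-62012834) had 32.3, 43 and 30 counts in G4, 0, 3 and 2 counts in G1, and 4, 0 and 3 counts in WT, and rose by 3.77 ± 0.52 on the log2 scale in G4 against WT. Other TE copies within 10 kb of that part, outside the provirus, summed to 25.6 counts in G4, 16 in G1 and 13 in WT. The 3′ LTR (chr13:62012835-62013357), printed above in part, had 7.74, 8 and 10 counts in G4 and none in G1 or WT. The provirus lies antisense in an intron of Gm48228, and the library kit does not mark strand, so reads of both strands cannot be told apart. The ERVB4_1B LTR with the most counts, by contrast, is a 77-bp fragment in exons of Scpep1os and of Scpep1, which lie on opposite strands (chr11:88924052-88924128). It had 39, 48 and 41 counts in G4, 23, 21 and 20 counts in G1 and 25, 31 and 31 counts in WT. Its log2 fold change of 0.48 ± 0.23 in G4 against WT was not called (edgeR adjusted p = 0.0938), and that of 0.94 ± 0.24 in G4 against G1 was. Other TE copies within 10 kb summed to 1863.1 counts in G4, 999.3 in G1 and 1192.2 in WT, and their part in this difference was not tested.

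ERVB4_1-I_MM-int has its leading copy on chr11 (chr11:78989752-78990166), in an element of mixed parts between RLTR50B LTRs. It had 7, 8 and 10 counts in G4, 23, 32.7 and 17 counts in G1, and 20, 13 and 24 counts in WT. G4 lay below WT without overlap, with a log2 fold change of -1.25 ± 0.36. Other TE copies within 10 kb, outside the element, summed to 87 counts in G4, 152 in G1 and 97 in WT. The leading ERVB4_3-I_MM-int copy (chr18:61721530-61721914), in an intron of Grpel2, had 4, 0 and 5 counts in G4, 6, 5 and 6 counts in G1, and 8, 7 and 12 counts in WT, and did not pass the filter.

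**Figure D4:**
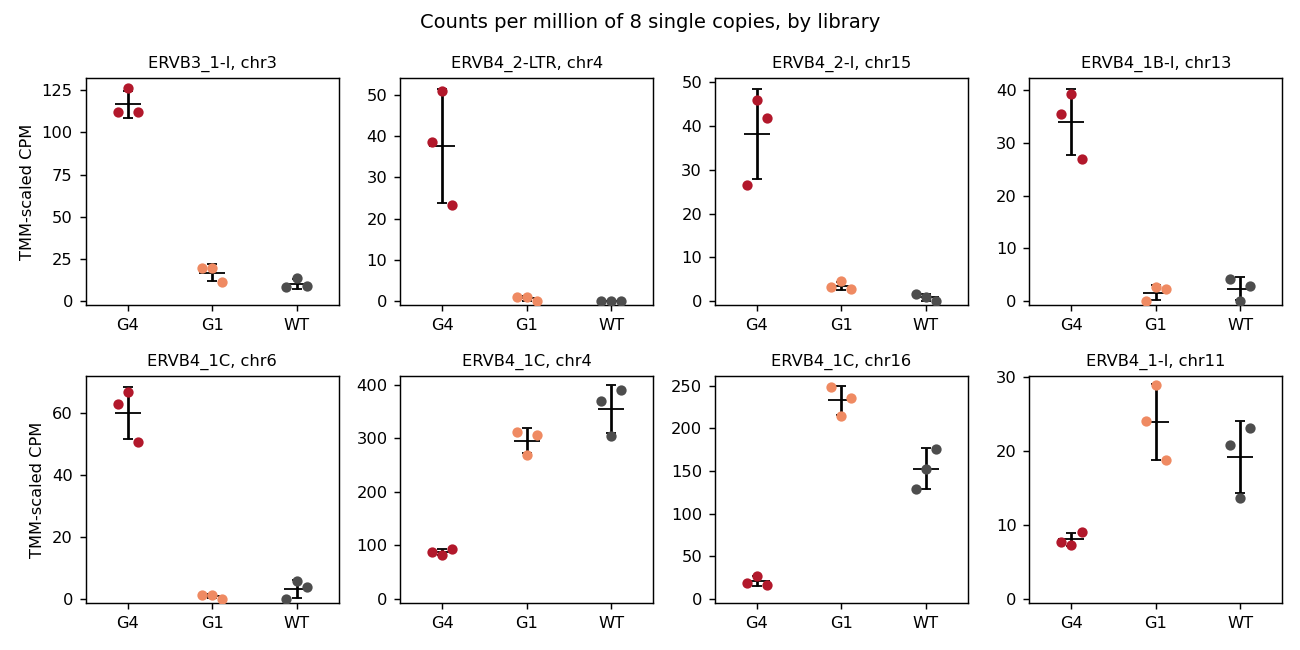
TMM-scaled CPM of 8 single copies in the 3 libraries of G4, G1 and WT (linear axes, points are libraries, marks and bars are mean and SD). The ERVB3_1, ERVB4_2 and ERVB4_1B copies and the chr6 ERVB4_1C fragment are high in G4, and the chr4 and chr16 ERVB4_1C fragments are low there.

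The leading ERVB4_1C fragment (chr4:124353684-124353836), between ETnERV-int and RLTR13G, had 78.8, 89.4 and 102.9 counts in G4, 298.8, 302.9 and 278.2 counts in G1 and 355.4, 290.8 and 407.0 counts in WT. G4 stood below both other groups. It fell by 2.03 on the log2 scale in G4 against WT (SE 0.13). Other TE copies within 10 kb, outside the insertion, went the other way, with 90.8 counts in G4, 10 in G1 and 5 in WT.

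The fragment on chr16 (chr16:25522498-25522619), also between ETnERV-int and RLTR13G, had 16.8, 29.4 and 18.5 counts in G4, 237.8, 242.4 and 214.0 counts in G1, and 123.6, 146.2 and 183.7 counts in WT. It fell by 2.87 (SE 0.18) in G4 against WT and rose by 0.60 (SE 0.13) in G1 against WT. Other TE copies within 10 kb, outside the insertion, moved with it, at 13 counts in G4, 154 in G1 and 72 in WT. The fragment on chr12 (chr12:68562836-68562988) fell by 2.88 (SE 0.73) and the one on chr2 (chr2:144155683-144155835) fell by 2.34 (SE 0.44), although on chr2 the WT library of replicate 3, at 16.5 counts, overlapped the G4 range of 3.47 to 18.9 counts.

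All 6 tested fragments beside ETnERV-int, of 50 such fragments, fell in G4 against WT (42.6% of all copies tested were called). A fragment could pass the filter through G1 or WT alone. Over all 19 fragments between ETnERV-int and RLTR13G, the level was 139.8 ± 16.3 CPM in G4, 734.5 ± 91.4 CPM in G1 and 659.2 ± 28.2 CPM in WT. Beside MMETn-int, 5 tested fragments rose, 8 fell and 8 were not called, and a pair of those that fell shared all 9 values. The largest rise among them in G4 against G1 was on chr6 (chr6:127520170-127520292), with 57.1, 73.2 and 56.4 counts in G4, 1.21, 1.28 and 0 counts in G1, and 0, 5.36 and 3.84 counts in WT. Its log2 fold change was 4.24 ± 0.42 in G4 against WT, and its ratio of G4 over G1 was 89.9 with an exact 95% counting interval of 24.5 to 748. Other TE copies within 10 kb, outside the insertion, held 4 counts in G4, 8 in G1 and 5 in WT.

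The fragment on chr13 (chr13:113723181-113723302), with MMETn-int on both sides, was highest in G1. It had 0, 5.31 and 1.45 counts in G4, 61.3, 45.1 and 31.0 counts in G1 and 21.95, 10.7 and 4.33 counts in WT, with a log2 fold change of -2.64 ± 0.70 in G4 against WT and 1.86 ± 0.41 in G1 against WT. The first was not called without the WT library of replicate 1 (edgeR adjusted p = 0.0504) and the second not without the G1 library of replicate 1 (0.0585), nor by DESeq2 (0.178). Other TE copies within 10 kb, outside the insertion of this fragment, summed to 15 counts in G4, 7 in G1 and 2 in WT. The other large rise in G1 against WT was on chr6 (chr6:124797707-124797830), which rose by 0.85 ± 0.18 and fell by 0.66 (SE 0.20) in G4 against WT. The second change was not called without the WT library of replicate 3 (edgeR adjusted p = 0.0558) or the G4 library of replicate 3 (0.0680).

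The adjoining parts can be set beside the fragments. For 23 of 27 tested fragments the adjoining ETn or MusD part was tested too. The log2 fold changes in G4 against WT had the same sign in 22 of 23 pairs, and in all 15 pairs where both were called, with a Pearson r of 0.82 over 23 pairs. The points share libraries, and reads can be shared between fragment and part and between elements, so this describes the pairs and is no test. As whole names, MMETn-int averaged 28625 CPM in G4, 55723 CPM in G1 and 39337 CPM in WT. ETnERV-int averaged 2003 CPM in G4, 8924 CPM in G1 and 6422 CPM in WT.

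**Figure D5:**
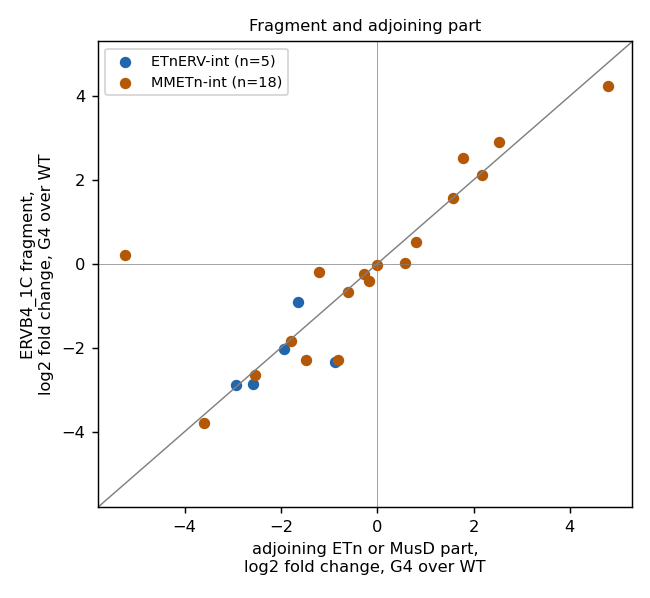
Log2 fold change in G4 over WT of 23 ERVB4_1C fragments (vertical axis) against that of the adjoining ETn or MusD part (horizontal axis), coloured by the part, with the line of equal change. Pearson r was 0.82, and the point far to the left is a chr6 fragment whose adjoining part fell while the fragment changed by 0.20.

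By place, 27 members overlapped exons over most of their length, 230 lay in introns, 127 within 5 kb of a gene and 298 farther away. The members over 5 kb from any gene averaged 703 ± 52.6 CPM in G4, 1090 ± 87 CPM in G1 and 866 ± 37.5 CPM in WT. Those within 5 kb averaged 476 ± 26.6, 444 ± 70.4 and 336 ± 65.2 CPM in the same order. Intronic members averaged 697 ± 19.9, 905 ± 47.6 and 688 ± 55 CPM, and exonic members 115 ± 10.9, 106 ± 14.5 and 104 ± 12.9 CPM. ERVB4_1C copies joined to ETn or MusD parts held 71.1% of all member counts, and their share by place was not tested. The 35 members on chrY summed to 12.7 counts in G4, 35.8 counts in G1 and 80.8 counts in WT, and the 16 on chrX to 65.7 counts in G4, 21.9 counts in G1 and 21 counts in WT.

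Of 30 genes that silence endogenous retroviruses or act on the same marks, 26 had a TE in an exon and 17 were tested through it. In G4 against WT 6 rose and 3 fell (48.3% of 4724 genes called). Trim28, the corepressor of KRAB zinc finger proteins, rose by 0.94 on the log2 scale, and Smarcad1, a chromatin remodeler that acts with it, by 1.06. The other rises were Tet1 (0.90), Tet2 (0.87), Resf1 (0.43) and Hells (0.37). Tet1 and Tet2 are listed as acting on the same marks, not as silencers, and Tet1 is also among the ESC markers. Suv39h1, which methylates H3K9, fell by 2.22, and Zfp809, a KRAB zinc finger protein that binds retroviral primer sites, fell by 0.48. Cbx3 fell by 2.16. Setdb1, the H3K9 methyltransferase recruited by Trim28, had a log2 fold change of 0.25 and was not called. In G1 against WT 3 rose and 2 fell (11.1% of genes called), but 3 in all were called by DESeq2, with a replicate block, or with any 1 of replicate 2 of G4, replicates 2 and 3 of G1 and replicates 2 and 3 of WT left out. In G4 against G1 5 rose and 3 fell (43.0%), and 5 in all were called without replicate 2 of G1 or of G4. With the study's call rule 3 were called in G4 against WT, 0 in G1 against WT and 3 in G4 against G1. The median log2 fold change of the 17 genes was 0.25 in G4 against WT, and 0.005 over all genes. These values are of reads in repeats within exons, not of the whole gene.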

How the data were processed

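RNA-seq of 9 libraries was analysed from the authors' table of estimated counts per TE copy, for which the submitters' processing notes name FastQC 0.11.9, STAR 2.5.3a, featureCounts and mm10; how reads were divided between copies is not given in the sources used here. The deposited expected counts were thus divided among copies by the authors, so that similar copies do not give independent values, and a second table of the same counts divided by a factor per library was not used. Counts were rounded to whole numbers and tested with edgeR 4.0.16 (R 4.3.3) with all 3 groups in one fit, TMM scaling and filterByExpr, for names (sums over copies), copies, and genes (sums over copies with a share of at least 0.5 in exons). DESeq2 1.42.0 served as an alternative. The tests were tried on simulated data. Coordinates are 1-based in GRCm38 (mm10), and genes and printed sequences are from GENCODE M21. A part adjoined a copy if it lay within 50 bp on the same strand, and an insertion joined LTR-class parts with gaps up to 300 bp. Other TE copies within 10 kb were counted from the ends of the named copy. They leave out the parts of its insertion and all ERVB3 and ERVB4 copies. Counting intervals and the floor of 3 counts cover counting error only. The members and lists were chosen with earlier results of these data known. Among called copies averaging 10 or more counts a library, those named are the top 4 in each direction for G4 over WT and the top 2 for the other comparisons, and besides them the copy with most counts under each name. The copies of other singled-out insertions were chosen after their values were seen. Alternatives were other scalings, tests and filters, a replicate block, leaving out each library, and other sets of copies.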

Additional observations from a re-analysis of the deposited data

How the results depend on the processing

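No change of scaling (DESeq2 size factors, library totals), of test (DESeq2) or the fit of only the groups compared moved a count of called names or copies by over 1.5 times. With names, 7 were called in G4 against WT. Only whole-valued copies gave 4, copies over 5 kb from genes 3 of 5 tested, and only copies joined to ETn or MusD parts 3 of 4 tested. In G1 against WT the count of 3 became 0 with whole-valued copies and 1 of 4 tested with only joined copies. Leaving out 1 library gave 1 (without G1 replicate 2) to 4. In G4 against G1 the count of 8 of 9 tested became 4 of 9 with whole-valued copies and 4 of 8 without the leading copies. It was 4 of 5 tested over 5 kb from genes and 4 of 4 tested with only joined copies. Counts of called copies rose with a filter of 10 counts in total. A copy can pass this filter through a single group, so the split into up and down describes only the copies that passed. In G4 against WT 55 of 150 tested were called, 40 up and 15 down. In G4 against G1 57 were called, 35 up and 22 down. The study's own rule called 9 in G1 against WT, 6 up and 3 down. Shares over all names and copies at these settings are not given here. The cause of these changes was not tested.

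Few directions turned. For ERVB4_1-I_MM-int in G4 against WT the log2 fold change was 0.055 with library totals, 0.316 with whole-valued copies and 0.195 without the leading copy, and -0.164 to 0.007 with 1 library left out. For ERVB4_1C-LTR_Mm it was 0.30 with whole-valued copies and 0.81 without joined copies in G4 against WT, and 0.13 with whole-valued copies in G4 against G1. For ERVB4_1B-I_MM-int it was -0.62 with only joined copies in G4 against WT, -1.29 in G4 against G1, and -0.15 over 5 kb from genes in G1 against WT. For ERVB4_1B-LTR_MM in G1 against WT it was 0.177 without the leading copy and -0.191 to 0.088 with 1 library left out. With whole-valued copies, ERVB4_1B-I_MM-int (0.26) and ERVB4_2-I_MM-int (0.52) were no longer called in G4 against WT.

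Libraries share replicate numbers, but same-numbered libraries did not deviate together (correlations of -0.014 to 0.016). Counting error can hide shared deviations, so this cannot settle whether the numbers pair them. With the replicate block 7, 3 and 8 names and 34, 4 and 37 copies were called, in the order G4 over WT, G1 over WT, G4 over G1. With 3 libraries per group and few counts per copy, most single copies could not be tested at this depth.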
